A study of Mus musculus with 244 samples.

Results

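The immediate early and heat shock genes are a set of 37 genes, 30 early response genes and 7 heat shock genes, picked by symbol from the 24475 genes of a table of expression values in single macrophages of the mouse aortic arch. All 37 symbols were found in the table. Baseline cells came from arches of donor mice that lacked Apoe, the gene of apolipoprotein E, and had eaten a high-fat diet for 16 weeks. Regression cells came from such arches after transplantation into wild-type mice on chow, taken 3 days after the operation. Both groups were sorted for CD45, CD11b and F4/80 and captured cell by cell on a Fluidigm C1 chip, so that each library is 1 cell. Of 244 libraries, 125 baseline and 113 regression cells were used. The labels name no animal, so each condition counts as 1 sample, and the values below describe these cells without a test between conditions. A regression arch can hold cells of the donor and cells that entered from the recipient, which the labels do not separate.

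Immediate early genes are transcribed within minutes of a stimulus, without new protein synthesis. Kinase cascades reach factors already bound at their promoters, such as serum response factor and CREB, and many of the products either regulate transcription or switch the response off again. In macrophages the same genes respond to microbial products, cytokines and adhesion, and they also respond when a tissue is cut up and digested into single cells. Heat shock genes encode chaperones that hold or refold proteins. Some of them are made in every cell, and others are switched on by heat shock factor when proteins unfold.

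Hspa1a and Hspa1b, the 2 stress-inducible HSP70 genes, lie side by side on chromosome 17, and their near-identity matters for every value given for them. RefSeq promoters on build GRCm38.p6 (250 bases before to 50 after the start) were available for 30 of the 37 genes, not for Egr1, Egr3, Myc, Ier2, Hspa8, Hsp90aa1 and Hsp90ab1. The upstream bases of Hspa1a and Hspa1b had the same letter at 247 of 250 positions. The last 120 bases before the start are shown for both, 5′ to 3′ on the minus strand, at chr17:34972157-34972276 for Hspa1a and chr17:34959239-34959358 for Hspa1b, with the single differing letter in capitals.
Hspa1a: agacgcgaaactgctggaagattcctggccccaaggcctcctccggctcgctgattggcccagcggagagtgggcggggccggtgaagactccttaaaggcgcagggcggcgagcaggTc
Hspa1b: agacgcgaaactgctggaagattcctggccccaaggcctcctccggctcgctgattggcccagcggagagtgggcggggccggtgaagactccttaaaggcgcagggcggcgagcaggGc
The transcripts also overlap: 1716 stretches of 50 bases were shared, which is 58.8% of those in Hspa1a and 62.3% of those in Hspa1b. Reads from one can therefore be counted to the other, and the 2 genes are described mainly as a pair. Hspa8, the constitutive HSC70 gene, shared no such stretch with either.

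Short motifs of the factors that act on early genes were searched on both strands of the 300 promoter bases. The CArG box, bound by serum response factor, was present in 3 of 26 early promoters (Dusp5, Egr2 and Zfp36), or 11.5%, against 1.81% of 27025 promoters. The full cyclic AMP response element TGACGTCA was present in 2 of 26 (Btg2 and Dusp1), or 7.69%, against 2.03%. The AP-1 site, TGACTCA or TGAGTCA, was found in Csrnp1 alone, or 3.85%, against 5.95%. For the heat shock element, bound by heat shock factor, only exact matches were counted. Such a match was found in no early promoter and in 1 of 4 heat shock promoters (Hsph1), against 0.662%. Imperfect copies were not counted, so Hspa1a, Hspa1b and Dnajb1 were not shown to lack the element. The windows below show where these letters stand, with 1 match of the motif in capitals (for Dusp5, the first of 2 adjacent CArG boxes), because Btg2, Dusp1 and Zfp36 carry several of the results that follow. They are read 5′ to 3′ along the gene, at chr1:134079292-134079343 (minus strand) for Btg2, chr17:26508586-26508637 (minus) for Dusp1, chr7:28379255-28379308 (minus) for Zfp36 and chr19:53529041-53529094 (plus) for Dusp5.
Btg2: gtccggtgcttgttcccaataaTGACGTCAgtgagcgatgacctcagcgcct
Dusp1: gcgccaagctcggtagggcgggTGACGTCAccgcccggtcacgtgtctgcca
Zfp36: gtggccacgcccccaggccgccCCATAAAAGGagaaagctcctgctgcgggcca
Dusp5: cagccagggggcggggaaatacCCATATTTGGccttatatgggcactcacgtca
A match is a string of letters in the reference genome and was not tested as a binding site.

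Values are RPKM, reads scaled by transcript length and library size, so that levels can be compared between genes. Levels are given as log2(RPKM + 1), a difference is the regression mean minus the baseline mean on that scale, and a gene is called listed in a cell at RPKM of 1 or more. The sample numbers run in 5 stretches of 1 condition each: regression cells 1 to 20 (20 cells used), baseline cells 21 to 92 (69), regression cells 93 to 111 (18), baseline cells 112 to 167 (56) and regression cells 168 to 244 (75). The labels do not say what a stretch stands for. Each holds a single condition, so differences were also taken between every regression stretch and every baseline stretch, which makes 6 pairings.

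At least 3 of 9 macrophage markers were listed in 123 of 125 baseline cells and in 112 of 113 from regression. Classical monocyte markers reached 3 or more in 16.8% (baseline) and 27.4% (regression) of cells, neutrophil markers in 1.60% and 7.08%, nonclassical monocyte markers (Nr4a1, an early gene here, not counted) in 10.4% and 1.77%, and dendritic cell markers in 1.60% and 0. The neutrophil marker Ly6g was at 0. No cell listed 3 markers of T or NK, B, mast, smooth muscle or fibroblast, or endothelial cells. Apoe, the gene that the donor mice lacked and that wild-type recipients carry, was listed in 9 of 125 cells at baseline but in 112 of 113 in regression. The differences below thus also lie between cells that mostly did not list Apoe and cells that mostly did. The origin of single cells was not tested. Median genes listed per cell were 2491 at baseline and 2360 in regression, and 2669, 2457, 1892.5, 2515 and 2399 in the 5 stretches in order of number. The median share of RPKM from mitochondrial genes was 7.09% and 8.13%, and that from ribosomal protein genes 9.00% and 13.1%.

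The mean level of the 30 early genes in a cell (the early score) was 3.53 ± 0.94 at baseline (SD, n = 125 cells; lowest 1.17, median 3.65, highest 5.66). In regression it was 3.27 ± 0.88 (SD, n = 113 cells; lowest 0.69, median 3.32, highest 5.39). The 2 groups overlapped over almost their whole range, and 39 of 113 regression cells (34.5%) lay above the baseline median. The difference of -0.26 was smaller than 1 SD of either group. A median of 17 early genes per baseline cell and 16 per regression cell was listed.

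The early score differed more between stretches of 1 condition than between the conditions. Regression cells 1 to 20 had a mean of 3.86 ± 0.96 and baseline cells 21 to 92 of 3.88 ± 0.75. The other stretches lay lower, at 3.06 ± 0.90 for regression cells 93 to 111, 3.09 ± 0.96 for baseline cells 112 to 167 and 3.16 ± 0.79 for regression cells 168 to 244. The 2 baseline stretches thus stood 0.79 apart, and the 3 regression stretches spanned 0.79. Of the 6 pairings, 2 gave regression the higher score and 4 the lower (-0.82 to 0.77). Without cells 21 to 92 the difference turned to 0.17, without regression cells 168 to 244 it was -0.05, and without baseline cells 112 to 167 it was -0.62. Without cells that list 3 or more markers of another cell type it was -0.45. Within stretches the early score correlated with genes listed per cell at Pearson's r of 0.11 to 0.69 (18 to 75 cells). The score and the gene number come from the same libraries, and the part of gene number in the stretch means was not tested.

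**Figure D1:**
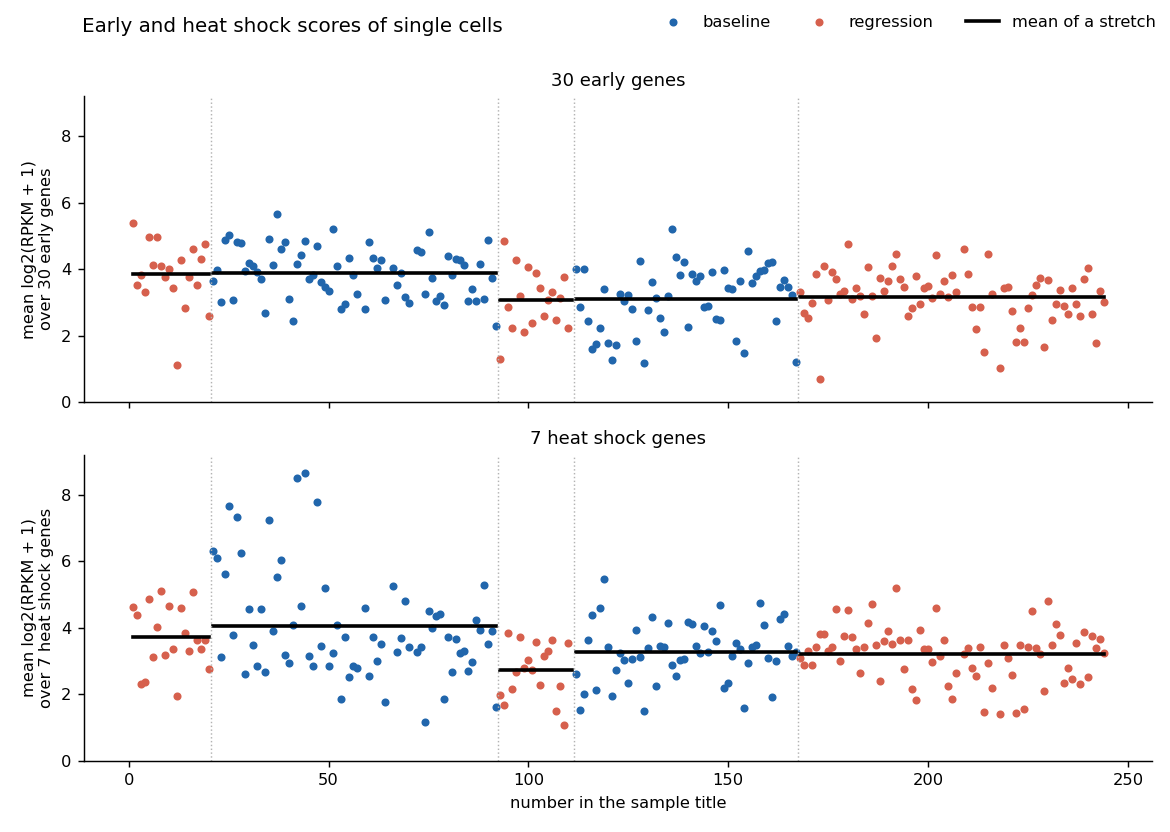
Mean log2(RPKM + 1) of the 30 early genes (top) and the 7 heat shock genes (bottom) in each cell, against the cell's number in its title; colours give the condition, and horizontal lines the mean of each stretch. Early means are high in cells 1 to 20 (3.86) and 21 to 92 (3.88), and the highest heat shock values all lie in baseline cells 21 to 92.

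The heat shock score, the mean level of the 7 heat shock genes, was 3.70 ± 1.39 at baseline (SD, n = 125 cells; lowest 1.16, median 3.44, highest 8.67). It was 3.23 ± 0.88 in regression (SD, n = 113 cells; lowest 1.07, median 3.36, highest 5.19). The medians stood closer together than the means, and the baseline range reached further up. The stretch means in order of number were 3.71 ± 0.95, 4.05 ± 1.62, 2.72 ± 0.83, 3.27 ± 0.87 and 3.22 ± 0.81. Baseline cells 21 to 92 thus had both the highest mean and the widest spread. The difference between conditions was -0.47, lower in regression in 5 of 6 pairings (-1.33 to 0.44), and it was -0.04 without cells 21 to 92 and -0.83 without cells 112 to 167.

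Single genes were counted only if 25% or more of the baseline cells, or of the regression cells, listed them, as held for 3946 genes. This left 26 of the 37 genes, namely 23 early genes and 3 heat shock genes (Hspa8, Hsp90aa1 and Hsp90ab1). Of the 26, 10 were higher on average in regression and 16 lower, with a median difference of -0.19. Over the 3946 genes, 1844 were higher and 2102 lower, with a median of -0.05. A difference of 1 or more was seen for 4 of the 26 (Ier3, Klf2, Fosl2 and Nr4a2), or 15.4%, where 5.6% of all genes passing the filter had one. Nr4a2 passed the filter only through regression (9.6% of baseline and 29.2% of regression cells), the group where it was higher. Its place in this count, and in those below that hold it, was thus partly set by the filter. A difference of -1 or less was seen for 5 (Btg2, Atf3, Egr1, Gadd45b and Zfp36), or 19.2%, beside 7.37% of all genes. All 9 were early genes.

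Read by stretch, fewer genes kept apart. All 3 regression stretch means lay above both baseline means for Ier3 and Fosl2, that is 2 of 26 genes, beside 12.4% of all genes. They lay below both for 4 of 26, Atf3, Gadd45b, Klf6 and Zfp36, beside 18.3%. Both shares are near or under those of all genes. For 20 of the 26 genes, those left over from these 2 counts, pairings of stretches went in both directions. For 23 the stretches of 1 condition spanned more than the difference between conditions. No share over all genes stands beside the 23, so it does not set these genes apart. Of the 9 genes past 1, Btg2, Egr1, Klf2 and Nr4a2 each had 1 pairing that went the other way.

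**Figure D2:**
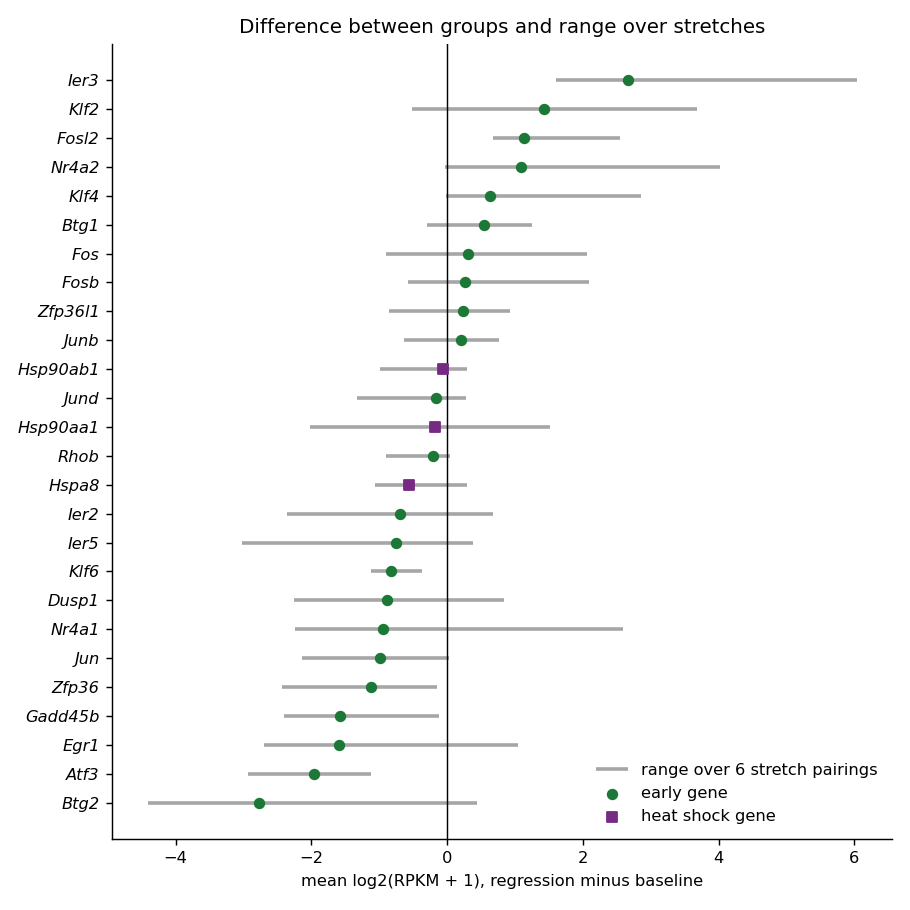
Difference in mean log2(RPKM + 1), regression minus baseline, for each of the 26 genes that passed the filter. Lines give the range over the 6 stretch pairings. Btg2 (-2.77) and Ier3 (2.66) lie furthest from 0, and for most genes the stretch pairings fall on both sides of 0.

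Among the 7 AP-1 genes, whose proteins pair up to bind AP-1 sites, 4 were higher on average in regression and 3 lower (median 0.21). Fos, the dimer partner that lends c-Jun stable binding, was among the most abundant early transcripts and was at RPKM of 1 or more in 122 of 125 baseline cells and 109 of 113 in regression. Its levels ran from 0 to 11.75 at baseline (median 9.06) and from 0 to 11.68 in regression (median 9.12). Means were 8.17 ± 2.79 and 8.49 ± 2.40 (SD). Baseline cells 112 to 167 stood apart from the other stretches, with a Fos mean of 6.99 against 8.23 to 9.14 elsewhere. The Fos difference of 0.31 turned to -0.65 without them and was 1.5 without cells 21 to 92.

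Atf3, a stress-induced factor that damps inflammatory genes in macrophages, was the AP-1 gene with the largest difference. Atf3 ranged from 0 to 11.63 at baseline (median 6.68, mean 5.65 ± 3.67) and from 0 to 11.19 in regression (median 2.73, mean 3.68 ± 3.58). The single-cell ranges coincided, while the difference of -1.96 had the same sign in 6 of 6 pairings. Stretch means of Atf3 were 3.55, 3.29 and 3.82 in regression and 6.23 and 4.93 at baseline. Without cells 21 to 92 its difference was -1.25.

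Fosl2, which encodes Fra-2, went the other way. It was listed in 65 of 125 baseline cells (52.0%) and 80 of 113 regression cells (70.8%), with means of 2.57 ± 2.84 and 3.70 ± 2.92 and a difference of 1.13. The Fosl2 regression means were 5.05, 3.75 and 3.33 against 2.51 and 2.65 at baseline. Its difference was 0.84 without cells 1 to 20 and 1.86 without cells 168 to 244. Without cells that list 3 or more markers of another cell type it was 0.74.

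The remaining AP-1 genes differed by less than 1. Jun, the central AP-1 subunit, averaged 4.15 ± 2.56 in baseline cells (82.4% listed it) and 3.17 ± 2.54 in regression cells (70.8%). Its difference of -0.99 was uneven: baseline cells 21 to 92 had 4.75, while cells 112 to 167 (3.41) stood close to the regression stretches (2.62, 3.44 and 3.25). Its difference was -0.25 without cells 21 to 92. Junb differed by 0.21, Fosb by 0.27 and Jund by -0.16, and each of these signs turned when a single stretch was left out.

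The other transcription factors of the set are 11 genes, of which 6 passed the filter, 3 higher on average in regression and 3 lower (median -0.10). Egr1, the zinc finger factor induced by most growth and adhesion signals, was listed in 76 of 125 baseline cells (60.8%) and 40 of 113 regression cells (35.4%). Egr1 ranged from 0 to 9.89 at baseline (median 2.99, mean 3.54 ± 3.33) and from 0 to 9.52 in regression (median 0, mean 1.95 ± 2.93). The cells that listed it had like levels, 5.7 at baseline and 5.4 in regression on average. The Egr1 difference of -1.59 did not hold in every stretch: the mean was 3.82 in regression cells 1 to 20, more than in baseline cells 112 to 167 (2.78), whereas regression cells 93 to 111 and 168 to 244 had 1.91 and 1.45. It was -0.83 without cells 21 to 92 and -0.62 without cells 168 to 244.

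Nr4a2 (Nurr1) and Nr4a1 (Nur77) are orphan nuclear receptors induced early in activated macrophages. Nr4a2 was found in 12 of 125 cells at baseline and 33 of 113 in regression, with highest levels of 7.87 and 9.96 and a median of 0 in both. Its difference of 1.08 stood beside a high level in regression cells 1 to 20. There 75% of cells listed Nr4a2 and the mean was 4.07, against 0.90 and 1.14 in the other regression stretches and 0.93 and 0.05 at baseline. Leaving out cells 1 to 20 gave a difference of 0.56, leaving out baseline cells 112 to 167 gave 0.69, and leaving out cells 168 to 244 gave 2.03. Without cells that list 3 or more markers of another type it was 0.71. Nr4a1 had the same high mean in cells 1 to 20 (4.60), yet a lower mean in regression overall (1.76 ± 2.44 against 2.70 ± 2.93), with its lowest mean in cells 168 to 244 (1.03). Without those cells its difference turned from -0.94 to 0.50.

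Klf2, Klf4 and Klf6 are Krüppel-like zinc finger factors, of which Klf2 is known to restrain monocyte activation. Klf2 levels ran from 0 to 9.04 at baseline (median 0.88, mean 2.39 ± 2.87) and from 0 to 10.76 in regression (median 3.26, mean 3.82 ± 3.64). Its difference was 1.43, with 5.69 in cells 1 to 20 and 3.71 in cells 168 to 244 but 2.19 in cells 93 to 111, which lay within the baseline range of 2.01 to 2.70. Without cells that list 3 or more markers of another type it was 0.93. Klf4 differed by 0.63, again with its highest mean in cells 1 to 20 (5.82), and by 0.20 without those cells and 1.51 without cells 168 to 244. Klf6 was more abundant and lower in regression, at 5.97 ± 2.65 against 6.80 ± 2.91, with 6 of 6 pairings of the same sign. The Klf6 difference of -0.83 was -0.49 without cells 168 to 244 and -1.42 without cells that list 3 or more markers of another type.

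**Figure D3:**
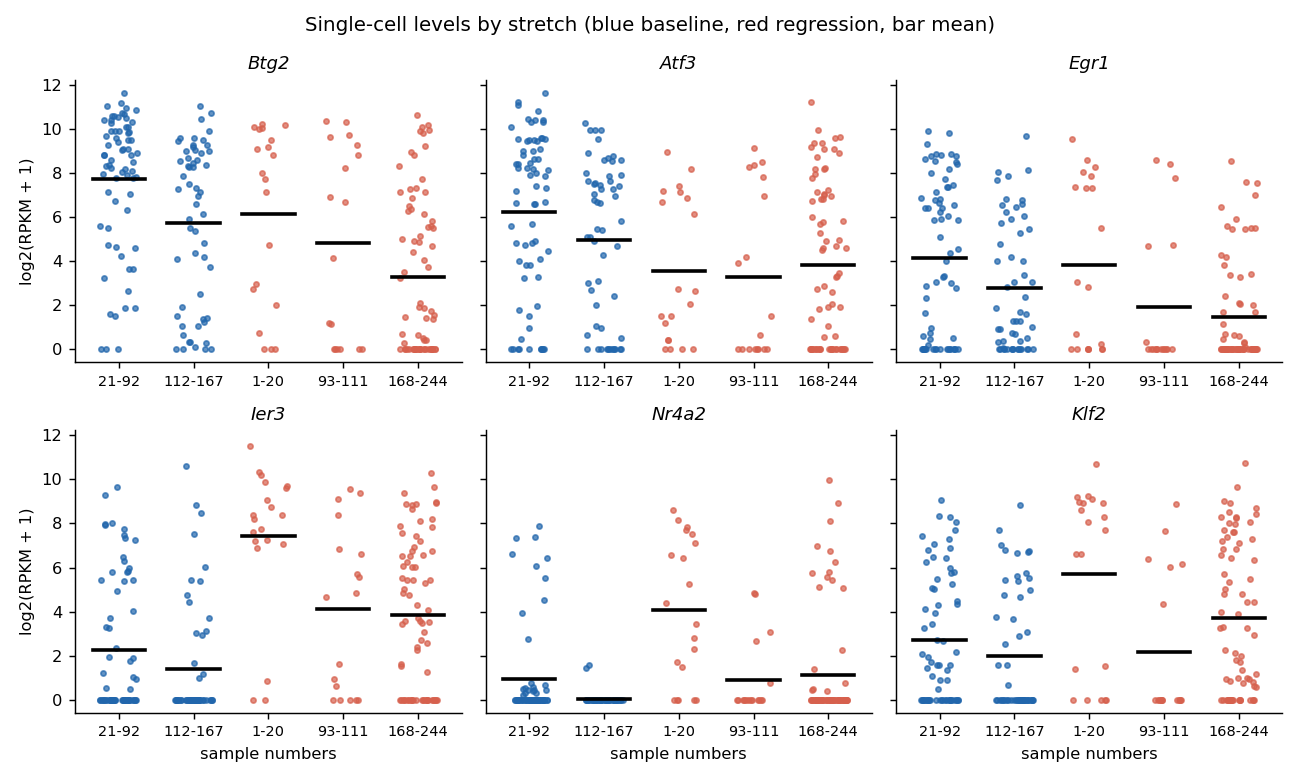
Level of Btg2, Atf3, Egr1, Ier3, Nr4a2 and Klf2 in every cell, in log2(RPKM + 1), by stretch of sample numbers; each point is 1 cell and the bar is the stretch mean. Many cells sit at 0 beside cells at 5 or more, and in cells 1 to 20 the means of Ier3 (7.43), Klf2 (5.69) and Nr4a2 (4.07) exceed those of the other 4 stretches.

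The third role, phosphatases and other feedback or response proteins, holds 8 genes, of which 6 passed the filter. The mean was lower in regression for 5 of them and higher for Ier3 (median -0.72). Ier3, a small early response protein that limits cell death after NF-κB signals, was listed in 45 of 125 baseline cells (36.0%) and 78 of 113 regression cells (69.0%). Ier3 levels spanned 0 to 10.61 at baseline (median 0, mean 1.88 ± 2.92) and from 0 to 11.53 in regression (median 5.02, mean 4.53 ± 3.65). The difference of 2.66 was the highest of the 37 genes and had the same sign in 6 of 6 pairings. Ier3 means were 7.43, 4.11 and 3.86 in the regression stretches against 2.27 and 1.40 at baseline, so the stretch means did not overlap although the cells did. Without cells 168 to 244 its difference was 3.98, and with a pseudocount of 10 it was 1.56.

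Gadd45b, which binds stress kinase regulators and is induced by NF-κB, was listed in 67 of 125 baseline cells (53.6%) and 29 of 113 regression cells (25.7%). Mean levels were 2.92 ± 3.31 and 1.33 ± 2.52. The Gadd45b difference of -1.58 kept its sign in 6 of 6 pairings, but regression cells 93 to 111 (1.93) and baseline cells 112 to 167 (2.05) were close. Without cells 21 to 92 it was -0.72.

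Dusp1, the phosphatase that switches off p38 and JNK, was present in 124 of 125 cells at baseline and 107 of 113 in regression. Levels of Dusp1 ran from 0 to 11.08 at baseline (median 8.54, mean 8.17 ± 1.90) and from 0 to 10.85 in regression (median 8.03, mean 7.29 ± 2.68), a difference of -0.88. Regression cells 1 to 20 (8.16) lay above baseline cells 112 to 167 (7.33), so 5 of 6 pairings were lower in regression. The Dusp1 difference was -0.04 without cells 21 to 92 and -1.57 without cells 112 to 167. Ier2 and Ier5, nuclear response proteins, differed by -0.69 and -0.76. Without cells 21 to 92 these values were 0.38 for Ier2 and -0.14 for Ier5, and Ier5 had 0.14 as a log2 ratio of mean RPKM. Rhob, a small GTPase induced early by stress, differed by -0.20, and by 0.24 as that ratio.

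The mRNA decay and antiproliferative genes held the most abundant transcript of the early set and also its lowest difference. Btg2, which recruits the CCR4-NOT deadenylase and slows the cell cycle, was listed in 113 of 125 baseline cells (90.4%) and 70 of 113 regression cells (61.9%). Its levels ran from 0 to 11.61 at baseline (median 8.23, mean 6.80 ± 3.50) and from 0 to 10.61 in regression (median 3.22, mean 4.03 ± 3.90). The Btg2 difference was -2.77, the lowest of the 37 genes, and it was not even over the stretches. Regression cells 1 to 20 had 6.15, above baseline cells 112 to 167 (5.71), whereas regression cells 168 to 244 had 3.29 and baseline cells 21 to 92 had 7.70. It was -1.67 without cells 21 to 92 and -1.30 without cells 168 to 244.

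Btg1, a close relative of Btg2, was listed in every cell used. Btg1 spanned 2.27 to 12.96 at baseline (median 10.13, mean 9.83 ± 1.71) and from 2.28 to 13.11 in regression (median 10.79, mean 10.37 ± 1.97). The 2 relatives thus differed in opposite directions, by 0.54 for Btg1 and -2.77 for Btg2. Zfp36 encodes tristetraprolin, which binds AU-rich elements and speeds the decay of cytokine mRNAs. Its levels ran from 0.43 to 10.98 at baseline (median 8.71, mean 8.21 ± 2.19) and from 0 to 11.41 in regression (median 7.80, mean 7.09 ± 2.81). The Zfp36 difference of -1.12 had the same sign in 6 of 6 pairings and was -0.48 without cells 21 to 92 and -0.95 without cells 1 to 20, while its paralog Zfp36l1 differed by 0.24 (-0.36 without cells 168 to 244).

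The 11 genes that did not pass the filter were Egr2, Egr3, Nr4a3, Myc, Csrnp1, Dusp2 and Dusp5 among the early genes and Hspa1a, Hspa1b, Dnajb1 and Hsph1 among the heat shock genes. Between 6.4% and 24.8% of baseline cells listed them, and between 1.77% and 23.0% of regression cells. Their differences ran from -0.93 (Hspa1a) to -0.06 (Csrnp1). In both groups, 8 genes were listed by 90% of cells or more: Fos, Junb, Dusp1, Zfp36, Zfp36l1, Btg1, Hspa8 and Hsp90ab1.

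**Figure D4:**
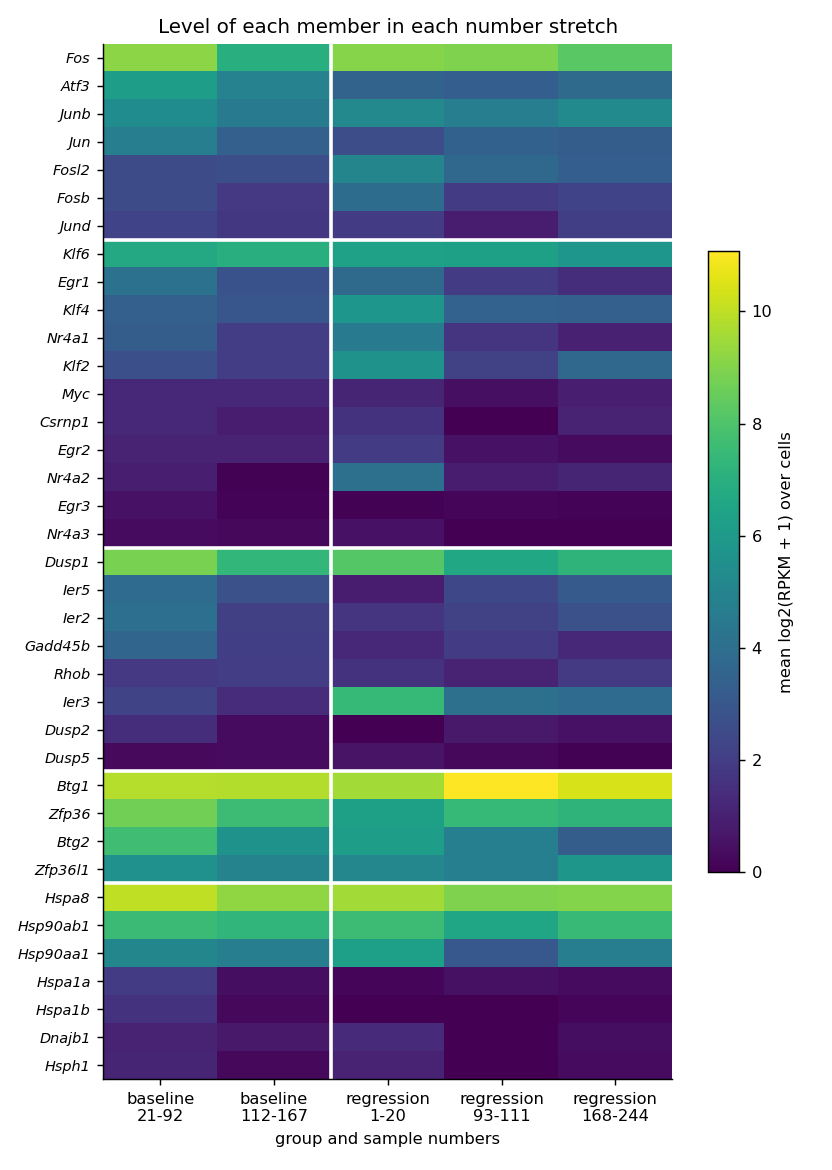
Mean log2(RPKM + 1) of each of the 37 genes in the 5 stretches of sample numbers, ordered by role, with the condition of each stretch given below its column. Fos, Dusp1, Zfp36, Btg1, Hspa8 and Hsp90ab1 are high in all columns, and Klf2, Klf4, Nr4a1, Nr4a2 and Ier3 are highest in cells 1 to 20.

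Since condition is the same within each pair, stretches of 1 condition show how far these genes move without it. Of the 23 early genes that passed the filter, 20 had the higher mean in baseline cells 21 to 92 than in baseline cells 112 to 167, where 50.2% of all genes did. The median gap was 0.88, beside 0.00 over all genes. The gap was 1 or more for 11 of the 23 genes, beside 3.47% of all genes, and -1 or less for none, beside 3.85%. The widest gaps were those of Fos (2.15), Btg2 (1.99), Ier2 (1.94), Gadd45b (1.57) and Dusp1 (1.53). These 2 stretches had median genes per cell of 2457 and 2515 and median mitochondrial shares of 6.42% and 7.80%, and 18 of 69 and 13 of 56 cells listed 3 or more markers of another type. The part of these values in the gap was not tested. The 3 heat shock genes that passed were also higher in cells 21 to 92, by 0.26 (Hsp90ab1) to 0.77 (Hspa8).

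Regression cells 1 to 20 were set beside regression cells 168 to 244 in the same way. The mean was 1 or more higher for 9 of 23 early genes, beside 14.4% of all genes, and 1 or more lower for 2, beside 8.11%. Ier3 (3.57), Nr4a1 (3.57), Nr4a2 (2.93), Btg2 (2.86), Klf4 (2.44), Egr1 (2.37), Klf2 (1.98), Fosl2 (1.72) and Fosb (1.70) were higher. Ier5 (-2.27) and Ier2 (-1.09) were lower. Btg2, Egr1 and Nr4a1 are 3 of these 9 genes and also 3 of the 11, out of the same 23, higher by 1 or more in baseline cells 21 to 92. No share over all genes stands beside this overlap, so it does not mark a common set. Among the chaperones Hsp90aa1 was higher by 1.5. In cells 1 to 20, 6 of 20 cells listed 3 or more markers of another type, against 26 of 75 in cells 168 to 244.

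Cells 1 to 20 and baseline cells 21 to 92 had nearly the same early score but different genes behind it. Against cells 21 to 92, the regression cells were 1 or more higher for 7 of 23 early genes, beside 17.6% of all genes, and 1 or more lower for 7, beside 12.4%. The higher ones were Ier3 (5.17), Nr4a2 (3.14), Klf2 (2.99), Fosl2 (2.54), Klf4 (2.42), Fosb (1.41) and Nr4a1 (1.32). The lower ones were Ier5 (-3.02), Atf3 (-2.68), Zfp36 (-2.43), Gadd45b (-2.38), Ier2 (-2.36), Jun (-2.13) and Btg2 (-1.55). Fos, at 9.05 and 9.14, and Egr1, at 3.82 and 4.15, had like means in both. This comparison also crosses the conditions.

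Hspa8 was the most abundant heat shock gene, present in 124 of 125 cells at baseline and 112 of 113 in regression. Hspa8 levels ran from 0 to 12.40 at baseline (median 10.13, mean 9.66 ± 1.90) and from 0.65 to 11.60 in regression (median 9.49, mean 9.11 ± 1.62), a difference of -0.56, or -0.14 without cells 21 to 92. The HSP90 genes were close to level: Hsp90ab1, the constitutive form, had means of 7.44 ± 2.17 and 7.38 ± 2.54, and Hsp90aa1, the inducible form, 4.92 ± 2.80 and 4.74 ± 3.16. Neither small difference kept its sign under every alternative. Hsp90aa1 varied more by stretch, from 3.06 in regression cells 93 to 111 to 6.25 in regression cells 1 to 20. Dnajb1, an HSP40 co-chaperone, was found in 26 cells at baseline and 10 in regression, and Hsph1, an HSP110 exchange factor, in 21 and 9.

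The inducible HSP70 pair divided the cells more sharply. Hspa1a was listed in 27 of 125 cells at baseline and 11 of 113 in regression, Hspa1b in 22 and 2. At least 1 of the 2 genes was listed in 25 of 69 baseline cells 21 to 92 (36.2%) and 10 of 56 baseline cells 112 to 167 (17.9%). In the regression stretches, in order of number, 1 of 20, 3 of 18 and 8 of 75 cells did (5.0%, 16.7% and 10.7%), so the pair was not confined to cells 21 to 92. Both together were listed in 14 of 125 baseline cells (11.2%, exact 95% binomial interval 6.26% to 18.1%) and in 1 of 113 regression cells (0.885%, 0.0224% to 4.83%). All 14 baseline cells belonged to cells 21 to 92 (14 of 69, 20.3%, 11.6% to 31.7%). None of the 56 baseline cells 112 to 167 listed both (exact upper limit 6.38%, share equal to 3 cells 5.36%). None of 20 and of 18 cells did in the first and second regression stretch. There the exact upper limits were 16.8% and 18.5%, and the shares equal to 3 cells 15.0% and 16.7%. These intervals and limits cover counting error only, and they treat cells as independent draws. The 14 cells had the numbers 21, 22, 24, 25, 27, 28, 35, 38, 42, 44, 47, 49, 66 and 77. Of them, 12 were among the 29 cells used from number 21 to 49. The bound of 49 is the number of the last of these 12, so it was taken from the same cells.

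In these 14 cells Hspa1a RPKM ran from 13.3 to 1353 (median 112) and Hspa1b RPKM from 1.32 to 546 (median 127). Hspa8 RPKM in them ran from 534 to 2957 (median 1859), beside a median of 1119 over all baseline cells. Dnajb1 was listed in 8 of the 14 and Hsph1 in 8, so the other inducible chaperones were present in part of these cells. Their heat shock score ran from 4.35 to 8.67 (median 6.29), and the score itself uses Hspa1a and Hspa1b. Cell 44 was highest, with a score of 8.67, Hspa1a RPKM of 1353 and Hspa1b RPKM of 546, followed by cell 42 (8.52) and cell 47 (7.80). In all, 12 cells of this stretch scored above the highest cell of the other 4 stretches (5.47). Of these, 11 listed both Hspa1 genes.

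The 14 cells listed 1692 to 3848 genes (median 3149.5), beside a median of 2457 in cells 21 to 92, and had mitochondrial shares of 2.13% to 14.0%. Across the 69 cells of that stretch, the summed level of Hspa1a and Hspa1b correlated with Dnajb1 (Pearson's r = 0.45), Hsph1 (0.43), Dnaja1 (0.39), Hsp90aa1 (0.38), the early score (0.37) and genes per cell (0.28), but not with Fos (-0.06). The other chaperones examined had lower values, from 0.11 to 0.28, among them Hspa8 (0.24) and Hsp90ab1 (0.18). Of the other early genes examined, Egr1 had 0.28, Btg2 0.21 and Atf3 0.10. These values are across cells of 1 stretch that share library depth, and are given without a p. Without the 15 cells that listed both genes, the difference of the heat shock score was -0.12 and that of the early score -0.16. With Hspa1a and Hspa1b left out of the score, the heat shock difference was -0.30.

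**Figure D5:**
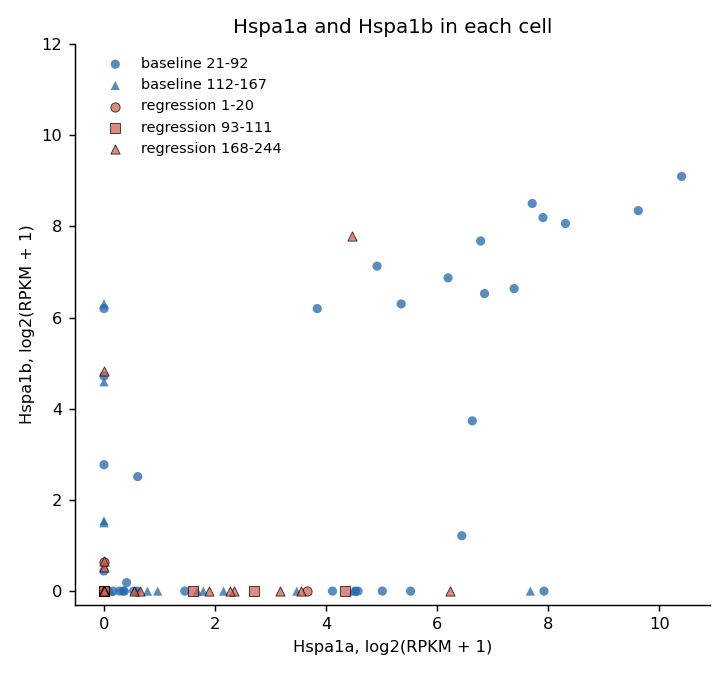
Level of Hspa1b against that of Hspa1a in each cell, both in log2(RPKM + 1). Colours give the condition, and marker shapes the stretches of sample numbers within it. The 14 baseline cells with both genes listed lie in cells 21 to 92, and 1 regression cell (number 232) has Hspa1b RPKM of 220 with Hspa1a RPKM of 21.2.

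Within stretches, the early genes varied together only loosely. Over the 253 pairs of the 23 early genes that passed the filter, the mean over the 5 stretches of the within-stretch Pearson correlation had a median of 0.11, and it was above 0 for 225 pairs (88.9%). Over the pairs of all 3946 genes the median was 0.04, with 67.1% above 0. Among the early and heat shock genes that passed, the highest pairs were Fos with Zfp36 (0.41), Atf3 with Zfp36 (0.39), Hsp90aa1 with Hsp90ab1 (0.38) and Fos with Dusp1 (0.38). Against the mean of the other early genes, Zfp36 (0.52), Atf3 (0.51), Fos (0.47), Dusp1 (0.42) and Egr1 (0.41) followed the set most closely. Klf2 (0.08), Btg1 (0.12), Gadd45b (0.12) and Jund (0.12) followed it least. This order depended on the scaling. With each cell centred on widely listed genes, Fos (0.45), Zfp36 (0.43), Dusp1 (0.42) and Junb (0.41) came first, Atf3 had 0.28, Jund 0.32, Btg2 0.18 and Gadd45b -0.02. Hsp90ab1 (0.42) and Hsp90aa1 (0.37) followed the other heat shock genes, with 0.25 and 0.18 after centring, whereas Hspa8 had 0.03 and -0.02. All these values rest on 18 to 75 cells per stretch that also share depth.

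Outside the set, the 10 genes that most resembled the early score within stretches were Nfkbiz (mean r = 0.47), Ccnl1 (0.41), Nfkbia (0.41), Cxcl2 (0.40), Tnfaip3 (0.40), Ccl3 (0.37), Ifrd1 (0.37), Pstpip1 (0.37), Lcp2 (0.37) and Rel (0.36). The median over 3946 genes was 0.09. Nfkbia, Nfkbiz and Tnfaip3 encode inhibitors or modulators of NF-κB, Rel one of its subunits, and Cxcl2 and Ccl3 are chemokines. When each cell was centred on widely listed genes, Nfkbiz stood at rank 2 and Cxcl2 at rank 4, while Lcp2 went to rank 181, Ifrd1 to rank 212 and Ccnl1 to rank 283. For the heat shock score the 5 genes were Hsp90b1 (0.38), Pttg1ip (0.35), Msn (0.34), Hint1 (0.33) and Eif3c (0.33), beside a median of 0.10. After centring, Hint1 went to rank 1894, Eif3c to rank 831 and Pttg1ip to rank 653, while Msn stood at rank 32 and Hsp90b1 at rank 78.

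Genes of the same pathways outside the set were counted in the same way. Of 35 other early response genes 21 passed the filter, 7 higher on average in regression and 14 lower (median -0.37). A difference of 1 or more was seen for 2 (9.52%, beside 5.6% of all genes) and of -1 or less for 4 (19.0%, beside 7.37%). Cebpb, a factor of the inflammatory and emergency response of myeloid cells, was higher by 1.99 (4.74 ± 2.09 at baseline, 6.73 ± 1.67 in regression, 6 of 6 pairings), and Bhlhe40 by 1.25. Rgs1, a regulator of chemokine receptor signalling, was lower by -2.76 (8.54 ± 3.80 and 5.79 ± 4.28, 6 of 6 pairings), and Nfkbiz by -1.35.

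Of 26 other chaperone genes 15 passed, 5 higher and 10 lower (median -0.28), beside 1844 higher and 2102 lower of all 3946 genes. A difference of -1 or less was seen for 1 of the 15 (6.67%), beside 7.37% of all genes, and of 1 or more for none, beside 5.6%. Hspa5, the HSP70 of the endoplasmic reticulum, differed by -1.02, Ahsa1, an activator of HSP90, by -0.91, Hsp90b1 by 0.36 and St13, an HSP70 cofactor, by 0.85. Of 12 upstream kinases and factors 6 passed, 4 higher and 2 lower (median 0.17), with 1 of the 6 (16.7%) at -1 or less and none at 1 or more. Hsf2, a heat shock factor, differed by -1.09, Mapk3 by -0.18 and Elk3, a partner of serum response factor, by 0.87. Hsf2 and Elk3 each had the same sign in 6 of 6 pairings.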

How the data were processed

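The authors deposited 1 table of RPKM values, made from C1, SMARTer and Nextera XT libraries per the labels' protocols. Those protocols speak of islet cells, while the other labels give macrophages of the aortic arch. The submitters' processing notes name mm10, CASAVA 1.8.2 and FastQC. For the aligner, annotation and RPKM program the sources used here give no name, and read depth was not estimated.

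Columns were matched to samples by the number in the title. Near copies (log2 correlation above 0.9) were averaged, which joined 3 baseline pairs with r from 0.992 to 0.997 (next highest 0.654). Cells with under 1000 genes at RPKM of 1 or more (3, all regression) were left out. Values were analysed as log2(RPKM + 1), with a pseudocount of 1, which understates differences of low genes. Listed means RPKM of 1 or more. Differences were counted past 1 among genes that 25% or more of the cells of either condition list. Shares have exact Clopper-Pearson 95% intervals; beside a count of 0 stands the share equal to 3 cells. Doublets were not called.

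With 1 sample per condition no test was made. The 37 genes and the other lists were chosen with earlier results of these data known. Named genes outside the set are, by rule, the 10 and 5 that most resemble the scores and the 2 highest and 2 lowest of each other list; 1 gene so named is not reported here, and Dnaja1 was named after its values were seen. The calculation of the difference was checked on simulated cells for the sign of planted shifts. Those cells were drawn independently and without a stretch effect, so the check says nothing about how stable the differences here are. Python 3.11.15, pandas 2.3.3, numpy 2.4.6, scipy 1.17.1 and matplotlib 3.10.9 were used.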

Additional observations from a re-analysis of the deposited data

How the results depend on the processing

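The early score difference of -0.26 reversed without cells 21 to 92 (0.17) and stayed negative in the other alternatives run, from -0.62 without cells 112 to 167 to -0.05 without cells 168 to 244. The heat shock difference of -0.47 stayed negative throughout, at -1.23 as a log2 ratio of mean RPKM and between -0.83 (without cells 112 to 167) and -0.04 (without cells 21 to 92) otherwise. The count of genes higher by 1 or more, 4, was 1 with a pseudocount of 10, 2 without cells 1 to 20 and 1 without the cells (31 baseline, 39 regression) that list 3 or more markers of another type. The count lower by 1 or more, 5, was 9 with a pseudocount of 0.1, 2 with a pseudocount of 10, 8 with each cell rescaled to a sum of 1000000, 2 without cells 21 to 92, 12 without cells 112 to 167 and 10 without the cells with other markers. A single-gene value was taken as unmoved if it changed by less than 1 SD over the 6 stretch pairings. By that measure, 652 of 665 values under an alternative were unmoved and 13, from 11 genes, moved. This SD can exceed the difference itself (for Fos 1.24, beside 0.31). Summing Hspa1a and Hspa1b cannot change the other genes, so those values were fixed in advance. The count therefore says little about how stable a difference is. None of the 9 genes past 1 changed sign, but 18 of the 37 genes did under at least 1 alternative (39 values), all of them with a difference under 1. Leaving out the cells that list both Hspa1a and Hspa1b, and the score without these genes, were chosen after seeing the data. No paired analysis was possible because the conditions share no sample numbers. RPKM values carry no counts, so the precision of a single cell's value is not known, and a gene at 0 may be unsampled.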
